A study of Mus musculus with 15 samples.

Results

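The regions described here are stretches of mouse promoter DNA that lie more than 1000 bp upstream of a transcription start. They were read with array probes whose annotation gives 1 gene name and whose nearest distance to that gene's start is over 1000 bp on the upstream side. There were 6939 such probes among 80567 (8.61%), and averaging them per gene gave 4222 far upstream averages among 21818 averages of all kinds. All came from methylated DNA immunoprecipitation (MeDIP), in which an antibody against methylated cytosine pulls down DNA fragments, followed by hybridisation to promoter arrays in 2 parts that hold different promoters.

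TKO mouse embryonic stem cells, labelled as deficient in DNA methylation, were compared with wild-type J1 mouse embryonic stem cells, both kept with serum and LIF and grown without feeder cells for 2 passages before harvest. TKO commonly stands for a triple knockout of Dnmt1, Dnmt3a and Dnmt3b, the enzymes that methylate DNA. From each line 2 ug of DNA went into the immunoprecipitation, and each of 7 arrays per part carried TKO DNA in red (Cy5) and J1 DNA in green (Cy3), from cultures of different passages. RNA of both lines was compared on 3 further arrays, of which replicate 2 had its dyes swapped. The labels do not say whether either line is a single clone, and p-values measure the spread between these cultures only.

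In mammals most CpG sites carry methyl groups, and the main exceptions are CpG islands, the CpG-rich stretches that cover many transcription starts. Moving upstream from such a start, the sequence leaves the island and reaches its shore and the flanking DNA, where methylation is usually denser. Starts that are poor in CpG, typical of genes used in 1 tissue only, have no such border, so the start and the distant upstream DNA are alike in sequence. MeDIP signal depends on both the methylation and the number of CpG sites in a fragment.

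Every ratio below is log2(TKO/J1), so a positive value lies on the labelled TKO side and a negative one on the labelled J1 side. MeDIP ratios were centred on the median of all probes of each array. Their 0 is therefore that median, each side is relative to it, and an overall difference between the lines is removed. No MeDIP array had its dyes swapped, so dye and line cannot be told apart, and no ratio is read here as a gain or loss of methylation. The dye order of the RNA arrays is a likely one, taken with lower Dnmt transcripts in TKO already known, so their direction does not check the lines. Under that order Dnmt3b was at -2.72, -2.44 and -2.34, Dnmt3a at -2.49 and -2.23 on the 2 arrays that measured it, and Dnmt1 at -0.89 and -1.25 on 2 arrays. The cofactor Dnmt3l had the opposite sign (0.79 ± 0.11, SD, n = 3). Correlations between MeDIP arrays ran between 0.336 and 0.786 on part 1 and between 0.389 and 0.726 on part 2, and 86.8% to 99.1% of probes were well above background in both channels of an array.

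To show the kind of sequence involved, the 250 bases upstream of the start are given for 4 of the genes with the largest differences between far upstream and near start ratios. They are the window beside which the near start probes lie, not the far upstream probes themselves, whose sequences and genome build were not used here. They come from RefSeq (GRCm38.p6), read 5′ to 3′ on the gene's strand, with each CG dinucleotide in capitals. Tsg101 (chr7:46919970-46920219, minus strand) and Top1 (chr2:160645647-160645896, plus strand) were higher far upstream than near the start. Gjb6 (chr14:57133612-57133861, minus strand) and Snx14 (chr9:88438930-88439179, minus strand) were lower far upstream.
Tsg101: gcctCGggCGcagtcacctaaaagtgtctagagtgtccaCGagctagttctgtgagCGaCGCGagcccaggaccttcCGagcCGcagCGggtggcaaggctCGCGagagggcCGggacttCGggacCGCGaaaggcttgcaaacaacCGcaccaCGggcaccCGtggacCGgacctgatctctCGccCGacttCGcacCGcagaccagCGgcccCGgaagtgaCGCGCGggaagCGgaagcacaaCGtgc
Top1: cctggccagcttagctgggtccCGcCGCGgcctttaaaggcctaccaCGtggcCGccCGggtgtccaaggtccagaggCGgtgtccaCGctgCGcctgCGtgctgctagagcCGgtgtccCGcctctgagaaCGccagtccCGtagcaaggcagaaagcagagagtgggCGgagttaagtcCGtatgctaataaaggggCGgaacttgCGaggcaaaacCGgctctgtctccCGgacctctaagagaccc
Gjb6: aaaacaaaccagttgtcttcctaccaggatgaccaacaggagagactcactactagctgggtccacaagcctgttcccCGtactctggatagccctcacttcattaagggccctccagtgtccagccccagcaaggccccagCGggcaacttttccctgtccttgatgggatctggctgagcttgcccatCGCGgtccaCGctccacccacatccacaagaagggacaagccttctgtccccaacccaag
Snx14: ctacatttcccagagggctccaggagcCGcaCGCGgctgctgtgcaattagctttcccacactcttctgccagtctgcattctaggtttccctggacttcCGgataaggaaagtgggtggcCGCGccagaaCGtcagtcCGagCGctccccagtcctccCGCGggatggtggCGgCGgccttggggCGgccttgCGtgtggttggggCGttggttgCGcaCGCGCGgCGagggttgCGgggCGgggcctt
The Tsg101 window holds 30 CG and the Top1 window 20, against 5 in the Gjb6 window. The division is not clean: Zscan21, also higher far upstream, has 9 in its window, and Snx14, lower far upstream, has 23. Among the other lower genes with 1 listed start, Txndc8 has 4, Ccdc144b 3 and Cyp2c40 1. Of all 32851 starts in the table, 94.6% hold at least 1 CG in their 300 bases, with a median of 7.

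Relative to the median of all probes on an array, far upstream DNA lay on the labelled TKO side, and DNA close to the start did not. Near start probes made up 42198 of the 80567 probes, so the centring itself held their median close to 0. The gap between the 2 classes does not depend on the centring. On part 1 the median over far upstream probes averaged 0.12 ± 0.03 (SD, n = 7 arrays), against -0.0090 ± 0.0039 for probes within 1000 bp of a start. On part 2 the corresponding medians were 0.13 ± 0.04 and -0.0094 ± 0.0040. The far upstream median was above 0 on 7 of 7 arrays of each part, ran between 0.095 and 0.17 on part 1, and the 2 classes did not overlap on either part.

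**Figure D1:**
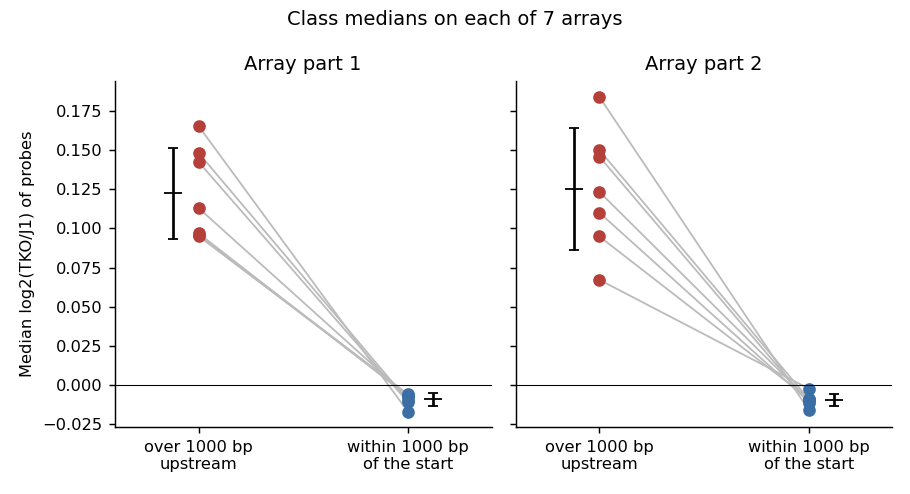
Median log2(TKO/J1) of far upstream probes (left) and near start probes (right) on each of the 7 arrays of parts 1 and 2, with grey lines joining the values of 1 array and black bars giving the mean and SD. Far upstream medians average 0.12 on part 1 and 0.13 on part 2, above the near start median on every array.

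In the main processing the ratio changed over a short distance and then stayed level. Within 500 bp of the start it was -0.031 ± 0.012 on part 1 and -0.032 ± 0.015 on part 2 (SD, n = 7 arrays each), and between 500 and 1000 bp upstream it was 0.046 ± 0.019 and 0.045 ± 0.022. From 1000 bp outward 6 bins of distance gave values between 0.10 and 0.14 on part 1 and between 0.10 and 0.15 on part 2, with no order among them beyond their spread. The profile depended on processing. With normexp background correction the values within 500 bp were -0.0061 and -0.0041, and those between 500 and 1000 bp upstream -0.0027 and -0.013. The 6 outer bins then ran from 0.034 to 0.062 on part 1 and from -0.0016 to 0.060 on part 2. Regions over 5000 bp away, with 338 probes on part 1 and 289 on part 2, were at 0.11 ± 0.03 and 0.14 ± 0.04. On the other side, probes over 1000 bp downstream of a start were at 0.083 ± 0.015 and 0.11 ± 0.02, so the level was not particular to the upstream side. At the 1000 bp limit itself, probes 1000 to 1100 bp away were at 0.0998 and 0.101 on the 2 parts, and probes 900 to 1000 bp away at 0.0753 and 0.0846.

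**Figure D2:**
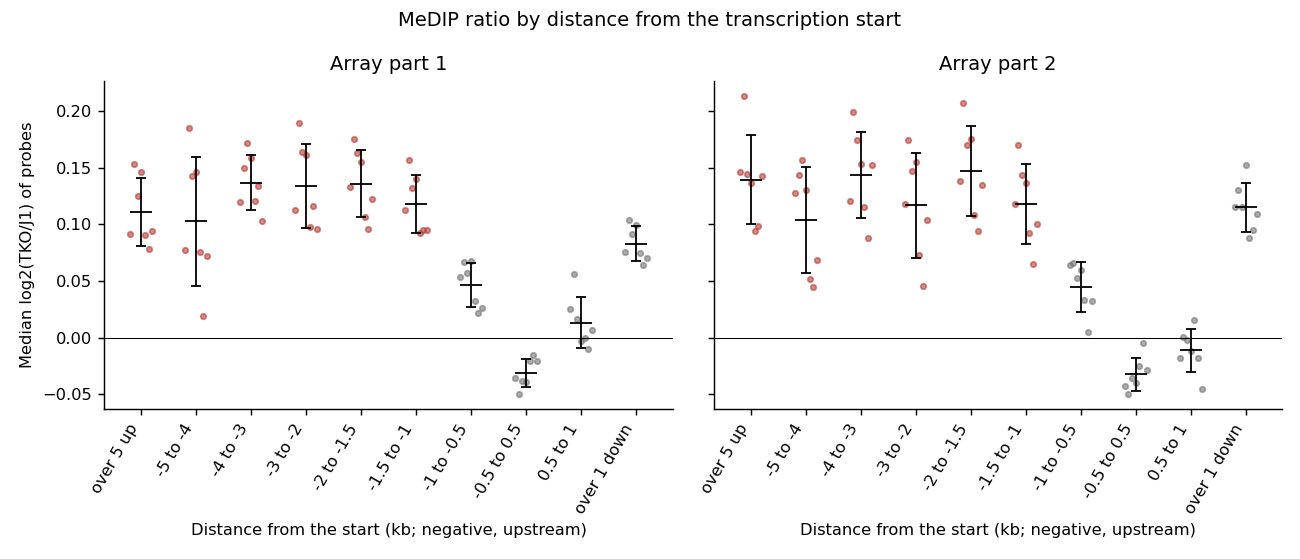
Median log2(TKO/J1) over the probes of each distance bin (x axis, kb from the start, upstream negative) on each of 7 arrays per part, with the mean and SD in black and the bins of the far upstream class in red. Values lie near 0.12 beyond 1 kb upstream, at 0.046 and 0.045 between 0.5 and 1 kb, and below 0 around the start.

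These regions were mostly just past the limit: the median distance was 1433 bp upstream, 52.9% of the probes lay within 1500 bp, and 9.04% lay beyond 5000 bp. The nearest was 1001 bp and the farthest 87564 bp from its start. Of the 4222 averages 2777 rest on 1 probe, 777 on 2 and 668 on 3 or more. The spread over arrays was wider far upstream (median SD 0.183) than near the start (0.104). Far upstream probes were also dimmer, with a median log2 brightness of 8.99 against 9.78 on part 1, and the part of probe number and brightness in the spread was not tested.

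Tested gene by gene against 0 in the fit over all 21818 averages (limma, adjusted p under 0.05 and at least 0.5 from 0), 499 far upstream averages (11.8%) were called towards TKO as labelled, and 11 (0.261%) towards J1. Over all averages tested the shares were 5.14% and 0.289%. Near start averages gave 282 calls on the labelled TKO side among 9034 (3.12%), and the 670 averages over 1000 bp downstream gave 75 (11.2%). At any size past the adjusted p 1848 far upstream averages passed on the labelled TKO side, with 449 opposite, where 29.5% and 23% of all averages passed. The median far upstream average was 0.13, with 71.2% above 0, against 0.0087 over all averages. Single-probe averages were called more often than those of 3 or more probes, in 361 of 2777 cases (13.0%) against 40 of 668 (5.99%). The near start class moved likewise, with 26 of 308 single-probe averages (8.44%) and 243 of 8444 with 3 or more (2.88%).

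Dim probes carried most of these calls. Sorted by brightness into 4 groups of equal size, the dimmest far upstream averages had 278 of 1056 called on the labelled TKO side (26.3%) and a median ratio of 0.26, while the brightest had 19 of 1056 called (1.80%) and a median of 0.035. Of the 499 called averages, 229 (45.9%) had every probe well above background in both channels on all 7 arrays, against 76.5% of the averages not called. Normexp background correction was run on the mean signals, so it replaced both the background subtraction and the dye normalisation of Agilent's processed signals. It called 49 averages on that side, and 45 of the 499 were among them. On the labelled J1 side it gave 5, and leaving out replicate 1 gave 20 there. Within each of 6 bins of probe brightness the far upstream median was still above the near start median, by 0.08 to 0.14 on part 1 and by 0.07 to 0.14 on part 2. The part of dye and background in the calls was not tested.

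**Figure D3:**
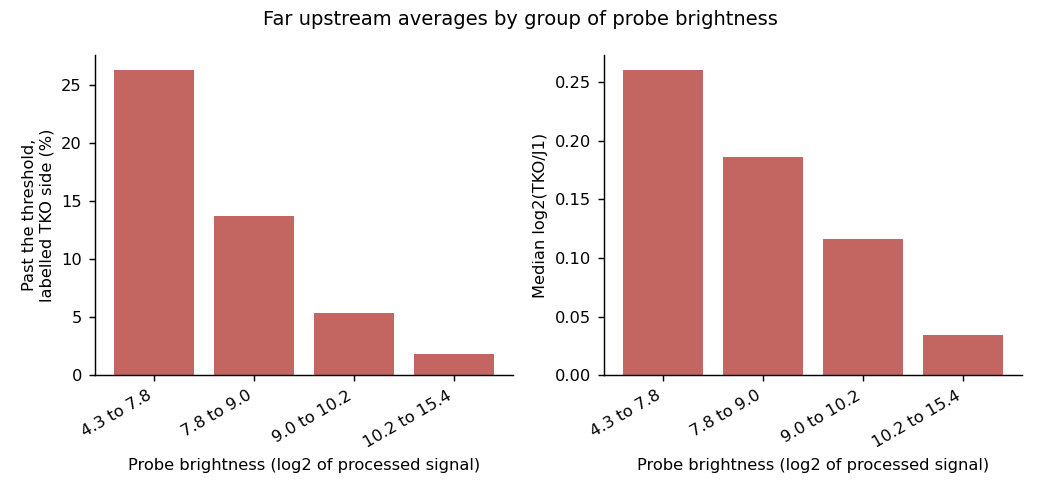
Share of far upstream averages past the threshold on the labelled TKO side (left, percent) and their median log2(TKO/J1) (right) in 4 equal groups of probe brightness, given as log2 of the processed signal. The share is 26.3% in the dimmest group and 1.80% in the brightest, and the median 0.26 and 0.035.

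The same gene could be compared with itself, since 3947 genes had both far upstream and near start probes. The difference, far upstream minus near start, had a median of 0.13. In limma's test over these genes 480 were higher far upstream (12.2%) and 74 lower (1.87%), at the same adjusted p and size. At any size 1358 were higher (34.4%) and 375 lower (9.5%). With normexp 47 genes were called higher and 8 lower, and 304 and 58 when every probe kept had to be above background in red and green. On all 7 arrays alike the difference was above 0 in 1040 genes and below 0 in 262.

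The gap between far upstream DNA and the start varied with the CpG content of the start in the main processing. For 2647 far upstream averages the RefSeq table lists exactly 1 start, and the ratio of observed to expected CG in its 300 bases (250 before and 50 after the start) sorted them into 3 classes. CpG-rich starts (ratio over 0.6) made up 53.5% of these, against 35.7% of all starts listed once. In the 1334 genes with a CpG-rich start and both classes of probe, the median was 0.11 far upstream and -0.063 near the start. In the 823 genes with a CpG-poor start (under 0.4) it was 0.17 far upstream and 0.12 near the start. The 3 far upstream medians lay between 0.11 and 0.17, whereas the level near the start was on the labelled TKO side at CpG-poor starts and on the labelled J1 side at CpG-rich ones.

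Per array, the median difference within genes of CpG-rich starts was 0.16 ± 0.04 on part 1 and 0.16 ± 0.05 on part 2 (SD, n = 7 arrays each). For genes of CpG-poor starts it was 0.033 ± 0.018 and 0.063 ± 0.032. The class in between (0.4 to 0.6) was at 0.16 ± 0.03 and 0.14 ± 0.04, close to the CpG-rich class. All 3 classes were above 0 on 7 of 7 arrays, and these values are a description with no test. With normexp the CpG-poor median turned to -0.027 and the CpG-rich one was 0.047. With at least 3 probes per gene and class it was 0.11 over 41 CpG-poor genes and 0.11 over 65 CpG-rich genes, so these few genes did not show the contrast. Called genes followed the same split: 27 of 823 CpG-poor genes were lower far upstream (3.28%) against 10 of 1334 CpG-rich genes (0.750%), and 82 (9.96%) against 189 (14.2%) were higher. Of genes with CpG-poor starts 16.8% had RNA above background in J1 on each of 3 arrays, and of those with CpG-rich starts 72.8%.

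**Figure D4:**
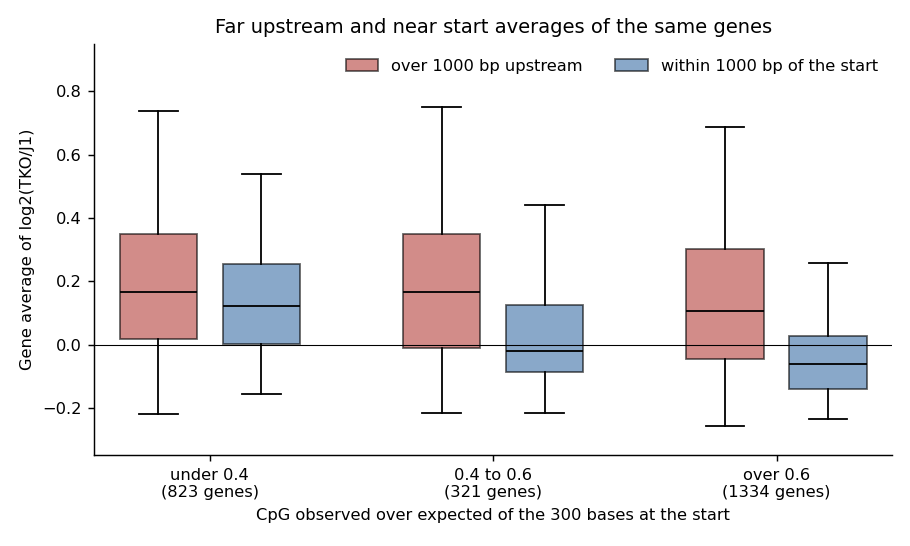
Gene averages of log2(TKO/J1) for far upstream (red) and near start (blue) probes of the same genes in 3 classes of CpG observed over expected at the start; boxes give the quartiles and median, whiskers the 5th and 95th percentiles. The far upstream medians are 0.17, 0.16 and 0.11 from CpG-poor to CpG-rich starts, and the near start medians 0.12, -0.019 and -0.063.

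Among genes with at least 2 probes in each class, the 6 largest differences upward were those of Toporsl, Nrip3, Tsg101, Zscan21, Pole4 and Top1. Tsg101, a component of the ESCRT machinery that sorts membrane proteins, had a far upstream ratio of 0.76 ± 0.49 and a near start mean of -0.26, and its difference was 1.02 ± 0.56 (SD, n = 7, limma adjusted p = 0.00137). Top1, a DNA topoisomerase, was at 0.89 ± 0.27 far upstream and -0.095 near the start, and its difference ran between 0.65 and 1.49 over the arrays. Pole4, a subunit of DNA polymerase epsilon, had a difference of 0.99 ± 0.36, and Zscan21, a zinc finger protein, 1.00 ± 0.28. Nrip3, named for its interaction with nuclear receptors, and Toporsl differed by 1.06 ± 0.36 and 1.07 ± 0.69. The rule that picked these 6 required a call and a difference of 1 sign on all 7 arrays. No far upstream probe of Tsg101, Nrip3 or Toporsl was well above background in both channels on all 7 arrays. Pole4 and Top1 had 1 of 2 such probes and Zscan21 had 2 of 3, and with these probes alone the differences were 0.68, 0.57 and 0.82.

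In the 6 largest differences downward the start stood further on the labelled TKO side than the distant DNA. Snx14, a sorting nexin, was at -0.18 ± 0.23 far upstream, short of the threshold, and at 1.34 near the start. Its difference was -1.53 ± 0.37 (SD, n = 7), with array values between -1.90 and -1.07. Gjb6, the gap junction protein connexin 30, was at 0.26 ± 0.19 far upstream and 1.21 near the start (difference -0.95 ± 0.22), and its distant DNA was above 0 on 7 of 7 arrays. Txndc8, a thioredoxin of the testis, differed by -0.75 ± 0.22, Cyp2c40, a cytochrome P450, by -0.71 ± 0.23, Osbpl6, an oxysterol-binding protein relative, by -0.68 ± 0.38, and Ccdc144b by -0.68 ± 0.29. These 6 too were picked among calls with 1 sign on all 7 arrays. With only probes above background in both channels on all 7 arrays, the differences were -1.36 for Snx14, -0.64 for Gjb6 and -0.89 for Cyp2c40. On such probes Ccdc144b was at -0.57, Txndc8 at -0.25 and Osbpl6 at -0.15. With normexp the 6 differences lay between -0.35 and -0.067, short of the size a call needs. RNA was above background in J1 for 12 of 64 genes that were lower far upstream and on both array types (18.8%). For genes higher far upstream it was 264 of 455 (58.0%), and for all genes with the test 52.7%.

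The far upstream averages that stood highest with at least 3 probes were led by Trps1, which encodes a GATA-type repressor, on chromosome 15. Its 4 probes lay 1478 to 2274 bp upstream and gave array values of 0.89 at the lowest, 1.07 at the median and 1.55 at the highest. The mean was 1.20 ± 0.28 (SD, n = 7, limma adjusted p = 6.7e-05), against -0.17 near its start, where it has 1 probe. All 4 probes were positive, from 0.78 to 2.18. With normexp the mean was 0.29 and no longer passed (adjusted p = 0.20).

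Rhox2a, a homeobox gene of the X-linked Rhox cluster that acts in germ line and placenta, came second. Its 4 probes, 2937 to 3758 bp upstream, gave 0.86 at the lowest, 1.03 at the median and 1.71 at the highest array, with a mean of 1.16 ± 0.30. It kept a call with normexp (0.77) and loess (1.13), and 3 of its 4 probes were well above background in both channels on all 7 arrays. Rhox2a has near-identical copies beside it, so its signal cannot be assigned to 1 copy. It has no near start probes, so the DNA at its own start was not measured in this class.

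Ihh, which encodes the signalling protein Indian hedgehog, averaged 0.77 ± 0.23 over 3 probes between 1012 and 2294 bp upstream, and -0.050 near the start. Its probes ran from 0.16 to 1.86, so the average rests on part of the stretch. On the 2 probes above background in both channels on all 7 arrays Ihh was at 0.23, and with normexp at 0.28. Nudt19, a hydrolase of the Nudix family, was at 0.74 ± 0.16 with 3 of 3 probes well above background and a normexp value of 0.39. The zinc finger gene Zfp654 was at 0.97 ± 0.28 and Zscan21 at 0.80 ± 0.16. With normexp they were at 0.021 and 0.26, and on probes above background in both channels on all 7 arrays at 1.04 and 0.63. Iars, an isoleucyl-tRNA synthetase, was at 0.82 ± 0.28, and Slc5a7, the choline transporter of cholinergic neurons, at 0.75 ± 0.25. With normexp these last 2 were at -0.032 and -0.13, and on probes above background in both channels on all 7 arrays at 0.12 and -0.13. Cd1d2, an antigen-presenting molecule, was at 0.80 and Trim59, a tripartite motif protein, at 0.79. Eogt, an enzyme that adds GlcNAc to proteins, was at 0.66, and Kng2, a kininogen, at 0.65. In this order, Cd1d2, Trim59, Eogt and Kng2 were at 0.43, 0.74, 0.78 and 0.71 on such probes. With normexp they were at 0.19, 0.18, 0.17 and 0.30. No average on the labelled J1 side with 3 or more probes was called by limma, although 56 passed the adjusted p and 66 an unadjusted p under 0.05 at any size, the lowest at -0.48.

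**Figure D5:**
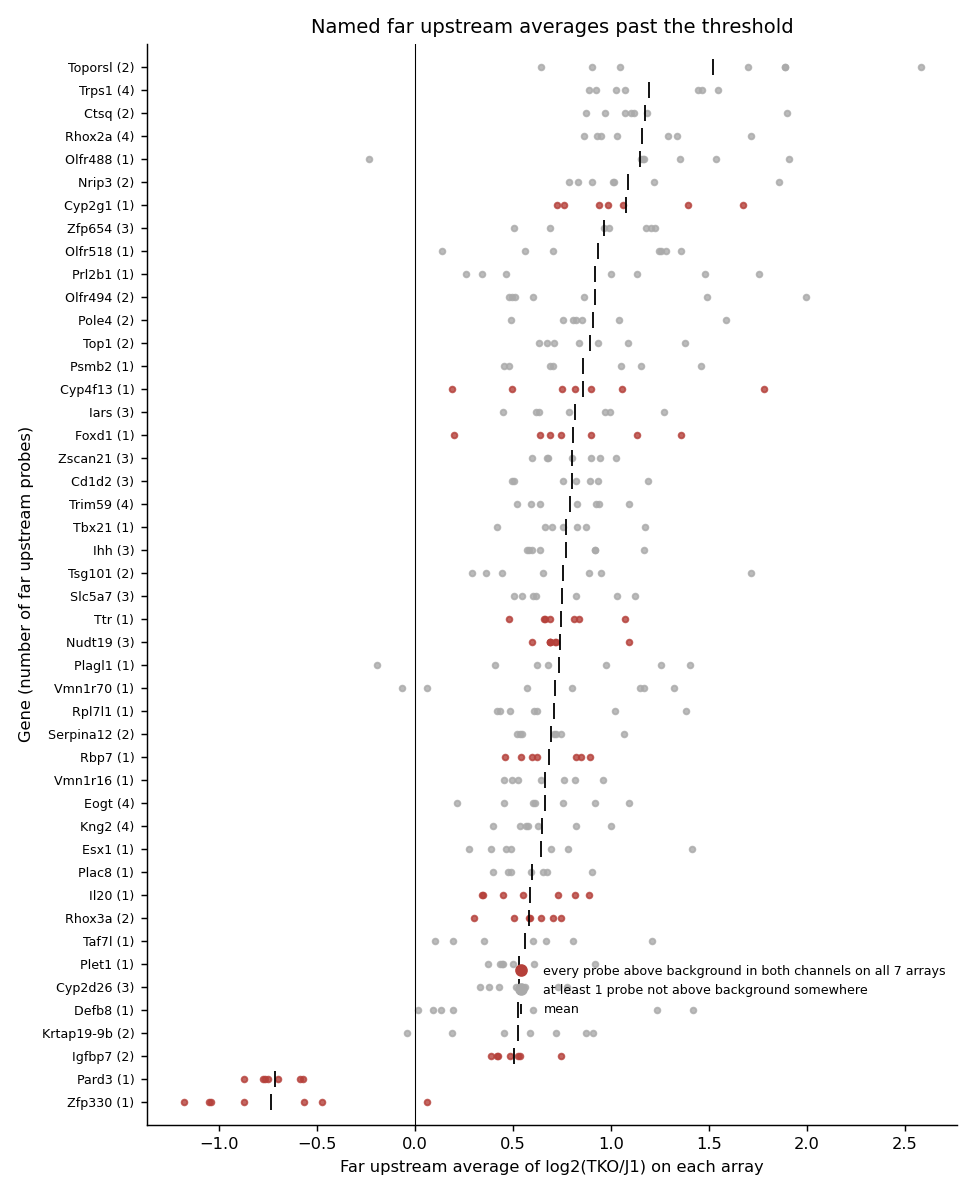
Far upstream log2(TKO/J1) on each of 7 arrays (points) and the mean (bar) for the 46 named averages past the threshold, with the number of probes in brackets. Red points mark averages whose probes were all well above background in both channels on all 7 arrays; Pard3 and Zfp330 lie on the labelled J1 side and the other genes on the labelled TKO side.

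Probes of 1 far upstream stretch often disagreed. Of the 668 genes with 3 or more probes, 197 had all above 0, 35 had all below 0 and 436 had both signs. The median SD between probes of a gene was 0.22, the same size as the SD of these genes' averages, 0.21. Among those with 4 probes, Trim59 had values from 0.70 to 0.92 and Eogt from 0.23 to 1.33.

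Far upstream averages were also grouped by gene list and read against the median of 0.13 over all far upstream averages. Olfactory receptors, used in the nose, had a median of 0.15 over 194 averages, with 21 called on the labelled TKO side (10.8%) and 1 opposite, close to the 11.8% of all far upstream averages. Zinc finger genes had 0.14 over 92 averages, with 12 calls (13.0%) and 1. Cytochrome P450 genes had 0.16 over 29, with 3 calls, and vomeronasal receptors 0.15 over 23, with 2. Trophoblast markers had 0.13 over 20 averages and 3 calls, and germ cell genes 0.19 over 16 and 1 call. Developmental regulators were lower, at 0.038 over 32 averages with 1 call, and pluripotency genes were at 0.015 over 8 with no call in limma's test, 2 past the adjusted p on each side.

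The remaining lists were small. Ribosomal proteins had a median of 0.21 over 14 averages with 1 call, tissue-specific genes 0.22 over 13 with 2, chemokine and interleukin genes 0.13 over 13 with 1, and defensins 0.067 over 10 with 1. Imprinted genes had 0.15 over 9 with 1 call and housekeeping genes 0.13 over 8 with 1. The 5 averages of the Rhox cluster had a median of 0.45 with 2 calls, and primitive endoderm markers and keratin-associated proteins 1 call each among 3. Histone genes had 3 averages with a median of -0.037 and no call, 1 of them past the adjusted p towards J1 as labelled. The 1 methyltransferase gene was not called either.

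The far upstream and near start medians of the same genes were then set side by side, with 12.2% higher and 1.87% lower far upstream over all 3947 genes. Olfactory receptors with both classes of probe had a median of 0.15 far upstream and 0.15 near the start (162 genes), and 12 were higher (7.41%) and 7 lower (4.32%) far upstream. Zinc finger genes were at 0.15 far upstream and -0.063 near the start (80 genes, of which 11 were higher, 13.8%, and 1 lower). Ribosomal protein genes were at 0.24 and -0.11 (11 genes, 1 higher). Trophoblast markers were at 0.16 and 0.19 (19 genes, 4 higher and none lower), and tissue-specific genes at 0.21 and 0.25 (11 genes, 2 lower). Split by RNA, genes above background in J1 on all 3 arrays were at 0.11 far upstream and -0.061 near the start (1958 genes). The genes not above background there were at 0.14 and 0.051 (1753 genes).

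Single genes of these lists reached larger values. Ctsq, a cathepsin of the placenta, was at 1.17 ± 0.34 over 2 probes and Prl2b1, a placental prolactin, at 0.92 ± 0.58 on 1 probe. With normexp these genes were at -0.0088 and -0.21. The olfactory receptor gene Olfr488 was at 1.15 ± 0.67 on 1 probe, with array values between -0.23 and 1.91, Olfr518 at 0.93 ± 0.47 and Olfr494 at 0.92 ± 0.60. Cyp2g1, an olfactory cytochrome P450, was at 1.08 ± 0.34 with its 1 probe well above background on all arrays, and Cyp4f13 at 0.86 ± 0.50. The vomeronasal receptors Vmn1r70 and Vmn1r16 were at 0.71 ± 0.55 and 0.67 ± 0.19. Receptor, placental prolactin, cathepsin and P450 genes come in families of close relatives, so probes may read more than 1 of them. Psmb2, a proteasome subunit, was at 0.86 ± 0.37 against -0.24 near its start, and Rpl7l1, related to a ribosomal protein, at 0.71 ± 0.36 against -0.043. Foxd1, a forkhead regulator, was at 0.81 ± 0.37 and the thyroid hormone carrier Ttr at 0.74 ± 0.19. The liver and fat serpin Serpina12 was at 0.69 ± 0.19, but its 2 probes were at 0.051 and 1.33, the first being the 1 above background in both channels on all arrays. Others were the cytokine gene Il20 at 0.59 ± 0.22, the defensin Defb8 at 0.53 ± 0.58, the keratin-associated Krtap19-9b at 0.53 ± 0.35 and Cyp2d26 at 0.53 ± 0.17. The imprinted growth regulator Plagl1 was at 0.74 ± 0.54, with a lowest array of -0.20. No probe of Ctsq, Prl2b1, Psmb2, Rpl7l1, Defb8, Plagl1 or the named receptor genes was well above background in both channels on all 7 arrays. Those of Foxd1, Ttr, Il20 and Cyp4f13 were.

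Of the genes looked for in every case, Dnmt1, the maintenance methyltransferase, had 2 far upstream probes at 0.32 ± 0.24, past the adjusted p (0.008) but short of the size a call needs, and was at -0.018 near its start. With normexp the far upstream value was -0.21 (limma adjusted p = 0.48), and on the 1 probe above background in both channels it was 0.11 (adjusted p = 0.40). Pou5f1, the pluripotency factor Oct4, had 4 probes 4683 to 5567 bp upstream at -0.22 ± 0.11, below 0 on 7 of 7 arrays, again short of that size. Actb, encoding beta-actin, was at -0.11 ± 0.12 with 3 probes. Dnmt3a, Dnmt3b, Dnmt3l, Nanog and Gapdh had no far upstream average.

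Chromosome 8 stood apart. Its 191 far upstream averages had the lowest median of the 21 chromosomes, 0.020, while the others ran between 0.084 on Y, with 7 averages, and 0.18 on chromosome 18. Near the start the chromosome 8 median was -0.11. It held 8 of the 11 calls on the labelled J1 side, among them Pard3, a cell polarity gene, at -0.72 ± 0.11 and below 0 on 7 of 7 arrays, and Zfp330, a zinc finger gene, at -0.73 ± 0.44 with 1 array above 0. Both rest on 1 probe that was well above background in both channels. RNA of genes with far upstream probes on that chromosome had a median of 0.20 over 104 genes, against 0.030 over 2026 genes elsewhere.

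RNA of the same genes was compared next, to see whether a far upstream ratio came with a change in expression. Of 2130 genes with far upstream probes and an RNA test, 443 were higher in TKO (20.8%) and 304 lower (14.3%) at an adjusted p under 0.05 (limma). Over all 13398 genes tested the shares were 16.4% and 15.7%, and over the 7458 present on both array types 18.5% and 14.8%. The counts for genes with far upstream probes were 223 and 149 without replicate 1 and 188 and 142 without replicate 2. With median centring in place of loess they were 79 and 118, and the median of all genes tested was then -0.10 instead of -0.0094. Among genes whose far upstream average was called on the labelled TKO side, 38 of 222 were higher (17.1%) and 28 lower (12.6%), with a median RNA ratio of 0.026 (-0.010 without replicate 2 and -0.0799 with median centring). The median over all genes on both array types was 0.011. RNA was above background in J1 for 46.3% of the 464 genes called on that side, against 54.6% of the 13301 genes on both array types. The 6 genes called on the labelled J1 side with an RNA test had a median of 0.55 with 4 higher in TKO. These 4, Zfp330, Pard3, Sh3rf1 and Lonp2, lie on chromosome 8. RNA of genes with far upstream probes there had a median of 0.20 over 104 genes, against 0.030 elsewhere. The RNA of these 4 genes was not tested apart from that chromosome.

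The 8 largest RNA changes among genes with a called far upstream average were those of Rhox2a, Tbx21, Esx1, Plet1, Plac8, Pard3, Rbp7 and Igfbp7. Rhox2a RNA was higher in TKO by 3.24, 3.52 and 2.43 on the log2 scale on the 3 arrays (mean 3.06 ± 0.57, SD). Esx1, a homeobox gene of placenta and germ line, was higher by 1.56 ± 0.09 on 3 arrays and Plac8, named for its expression in placenta, by 1.32 ± 0.38 on 3. Plet1, a trophoblast surface marker, was higher by 1.46 and 1.66 on the 2 arrays that measured it. Tbx21, the T-box regulator of T helper cells, was higher by 1.92 and 1.89 on 2 arrays. Their far upstream ratios were 0.64 for Esx1, 0.60 for Plac8, 0.53 for Plet1 and 0.77 for Tbx21, each on 1 probe that was not well above background in both channels on all 7 arrays. With normexp the far upstream ratios were -0.096 for Esx1, 0.17 for Plac8, -0.20 for Plet1 and 0.0011 for Tbx21.

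Igfbp7, a secreted binding protein of insulin-like growth factors, combined both changes on bright probes. Its far upstream average was 0.50 ± 0.12 over 2 probes (0.39 at the lowest, 0.49 at the median and 0.75 at the highest array), against -0.083 near the start. This average only just passed the size a call needs, with 0.47 under normexp and 0.46 at the lowest without 1 array. Igfbp7 RNA was higher by 1.08, 1.13 and 1.20 on the 3 arrays. Rhox3a had a far upstream ratio of 0.58 ± 0.15 and RNA higher by 0.67 ± 0.11. The germ cell gene Taf7l had 0.56 ± 0.38 and RNA higher by 0.94 ± 0.28. Its 1 far upstream probe was not well above background in both channels on all 7 arrays, and with normexp it was at 0.022. The opposite combination occurred too: Rbp7, a retinol-binding protein, had a far upstream ratio of 0.68 ± 0.17 and RNA that was lower by 1.45, 0.97 and 1.06 on the 3 arrays. Pard3, on chromosome 8 and on the labelled J1 side, had RNA that was higher by 1.28 and 1.27 on 2 arrays. A far upstream ratio on the labelled TKO side therefore stood beside RNA changes of either direction.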

How the data were processed

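MeDIP DNA of TKO and J1 cells was measured on 7 arrays per promoter part, and RNA on 3 arrays deposited as 1 sample. The deposited scanner intensity values came from Agilent Feature Extraction 8.5, per the submitters' processing notes, and per the file headers the processed signals are background-subtracted and dye-normalised. Value tables deposited by the authors give red over green as a log10 ratio, with centring unstated, and served as an alternative only. No genome build is stated for the probes.

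Probe ratios were log2(red/green) of processed signals, centred on each array's median, without uneven spots, and averaged per gene and distance class. RNA signals had normexp (offset 50) and loess, the sign of replicate 2 was turned, and each gene was read from its brightest probe. J1 is taken to be in Cy5 on RNA replicates 1 and 3. This order is not stated; it is the one in which the labels list the dyes, and it was taken with lower Dnmt RNA in TKO already known, so the Dnmt values cannot check it. Between RNA replicates, red over green correlated at -0.78 and -0.73 with the swapped replicate and at 0.74 between the others, and 8386 uneven spots were left out on replicate 3. Tests used limma 3.58.1 (R 4.3.3) with Benjamini-Hochberg adjustment over all averages, differences or genes. Parts were fitted apart, and averages needed 3 arrays. Scripts were tested on simulated data. Of 4222 averages, 4055 were named by accession, 71 by symbol and 57 by older symbol, and 39 keep the file's name.

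Named genes were, with 3 or more probes, the 12 highest and lowest calls of one sign on 7 arrays; the 6 highest and lowest differences with 2 or more probes per class; the 8 largest RNA changes among called genes; up to 3 calls per list; and 8 genes always. The regions, lists and rules were chosen with earlier results of these data known.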

Additional observations from a re-analysis of the deposited data

Results flagged for a closer look

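Among 50 sets of 7 arrays examined (the far upstream and near start medians of each part and the 46 named averages past the threshold), 7 held 1 array that stood apart from the other 6. Chance marks about 1 in 20 sets. In 6 of the 7 the array that stood apart was the highest. Nudt19 reached 1.09 on its highest array, with the next at 0.72, Nrip3 reached 1.86 with the next at 1.22, and Ctsq 1.90 with the next at 1.18. Plet1 reached 0.92, Igfbp7 0.75 and Serpina12 1.07. Olfr488 had its lowest array at -0.23 with the next at 1.15. None of the 4 class medians was marked.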

How the results depend on the processing

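The far upstream medians stayed above 0 under each alternative that gave them, including the authors' deposited table. Calls depended on the signals used. Normexp changed background correction and dye normalisation together, and their parts were not tested apart. Counts are given as far upstream averages on the labelled TKO side (499) and J1 side (11), then genes higher (480) and lower (74) far upstream. Normexp gave 49, 5, 47 and 8. Keeping probes above background in both channels gave 262 on the labelled TKO side and 304 higher. Regions over 2000 bp gave 122 and 1 of 1006 averages and 123 and 32 of 765 genes, and at least 3 probes gave 40 and 0 of 668 averages and 13 and 5 of 192 genes. Loess gave 341 on the labelled TKO side (335 of them among the 499), 28 on the labelled J1 side, 368 higher and 81 lower. Leaving out chromosome 8 gave 3 on the labelled J1 side. Without 1 replicate the 4 counts ran from 426 to 531, 11 to 20, 414 to 507 and 66 to 89. Without replicate 1 there were 20 calls on the labelled J1 side. The cause was not tested.

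Normexp put the far upstream medians at 0.044 and 0.020 (parts 1 and 2), bright probes put part 1 at 0.093, and mode centring put part 2 at 0.16. Leave-one-out values ran from 0.115 to 0.127 and from 0.115 to 0.135. The CpG classes, rerun after the data were seen, had median differences at CpG-poor starts of -0.027 with normexp, 0.077 over 2000 bp and 0.11 with at least 3 probes, and at CpG-rich starts of 0.047 with normexp and 0.11 with at least 3 probes; leave-one-out ran from 0.029 to 0.045 and from 0.149 to 0.162.

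With normexp 11 of the 46 named averages past the threshold changed sign: Iars (-0.032), Slc5a7 (-0.13, and -0.13 with probes above background), Esx1 (-0.096), Plet1 (-0.20), Vmn1r70 (-0.11), Krtap19-9b (-0.061), Defb8 (-0.084), Ctsq (-0.0088), Prl2b1 (-0.21), Rpl7l1 (-0.024) and Plagl1 (-0.18). Counted over these averages and the named differences (far upstream minus near start) together, a further 43 values lost their call and 4 held it. Every named difference lost its call, the largest in size being 0.49 for Pole4.

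For RNA, median centring gave 79 higher and 118 lower genes; among genes called on the labelled TKO side it gave 11 and 14 and a median of -0.0799, and for the labelled J1 side a median of 0.26. Leaving out 1 replicate gave 188 to 402 higher and 142 to 268 lower; for the TKO side genes 14 to 37 higher, 17 to 27 lower and medians from -0.010 to 0.030; for the J1 side medians from 0.43 to 0.56. The lowest counts were 188 higher and 142 lower without replicate 2, and 223 and 149 without replicate 1. Without the filter on dim probes the J1 side median was 0.051, and with any size of MeDIP change 0.0088.

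No paired analysis was possible because each array holds both lines and the 2 parts hold different promoters. The scan date block was not run, since no arrays of a part share a date. A slide block, estimable on part 2 only, gave 503 and 11 calls. Of 50 calls that normexp kept, 1 had no probe above background in both channels on all arrays; normexp with an offset shrinks dim ratios by construction.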
